A study of Mus musculus with 24 samples.

Results

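The clustered protocadherin genes of the mouse were described here through the accessibility of their transcription starts and of the chromatin around them. They were taken from the GENCODE vM21 annotation as the genes of chromosome 18 whose symbol begins with Pcdha, Pcdhb or Pcdhg, which gave 58 of 55413 annotated genes. All 58 lie on the plus strand of chromosome 18 between 36930184 and 37841873 of the mm10 build. They comprise 12 alpha variable genes, 22 beta genes, 19 gamma variable genes and 5 C-type genes. The alpha genes span 36930184 to 37187661, the beta genes 37264938 to 37524479 and the gamma genes 37661793 to 37841873. The annotation lists 2 genes under the symbol Pcdha11, which are told apart here by their identifiers, ENSMUSG00000007440 and ENSMUSG00000102206.

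Protocadherins are cadherin-like cell surface proteins, and the clustered ones give single neurons distinct adhesive identities through homophilic binding between cells. Each alpha and gamma variable gene is an exon with its own promoter that is spliced to constant exons shared by its subcluster, while each beta gene is a single-exon gene. In neurons CTCF and cohesin bring chosen promoters of the cluster to distal enhancers, and the alpha promoters are known to carry CTCF sites both at the promoter and inside the exon. The C-type genes end the alpha and gamma arrays and are regulated apart from the variable genes.

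Open chromatin was mapped by ATAC-seq, which relies on a transposase that cuts accessible DNA and adds adapters to it, in 24 libraries of E14 mouse embryonic stem cells. The endogenous CTCF, a DNA-binding protein that helps to fold chromatin, carried an auxin-inducible degron (AID), so that the auxin IAA leads to its degradation. There were 12 groups of 2 libraries in 4 sets. The labels do not state whether the replicates of a group are separate cultures, so a spread between them may be technical.

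In the set of CTCF lines, the AID line with a control overexpression construct was taken both untreated and after 12 h of IAA. AID lines that overexpress wild-type CTCF or mutated CTCF were taken only after 12 h of IAA. The labels do not state what the mutation changes, nor whether a line is 1 clone. In the Chd4 and Chd8 sets, AID cells without IAA carried the hairpin shluci or 1 of 2 hairpins, shRNA1 and shRNA2, against Chd4 or Chd8, which encode chromatin remodellers. The serum set holds AID cells at 0 h and at 12 h of IAA. The labels of these 4 libraries give serum, while the growth protocol names serum-free medium with LIF, PD0325901 and CHIR99021 for all 24 libraries. Every cell carried the degron and none without it received IAA, so an effect of IAA itself and the loss of CTCF cannot be told apart.

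A list of the CTCF lines had 120137 to 155087 peaks and one of the serum set 59786 to 82502. For Chd4 the range was 80619 to 141742 and for Chd8 135410 to 166697, and the depth behind the lists is unknown. Within each set every list was reduced to the strongest peaks in the number of the set's shortest list. Of 10 embryonic stem cell markers, 10 had a peak at a start in every library of the CTCF lines, 9 to 10 in the serum set and 8 to 10 in the Chd8 set. In the Chd4 set only 2 to 8 did, and 2 of them were called in replicate 1 of Chd4 shRNA2. Over the 24 libraries 2 to 4 of 6 fibroblast, 2 to 5 of 5 primitive endoderm and 1 to 5 of 5 neural markers had a peak at a start. Peaks of the CTCF lines had a median width of 283 to 456 bp, those with serum 371 to 417 bp. The knockdown libraries had narrower ones, with medians of 80 to 135 bp for Chd4 and 75 to 138 bp for Chd8. The part that these set differences play in the results was not tested, and calls and ranks are therefore compared within a set only.

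A gene was called in a library when a peak of the reduced list lay within 1 kb of one of its starts. Since a list holds only what passed its threshold, a gene without a call was below the limit of that list, which does not show closed chromatin. The rank of a gene is the percentile of its best peak by the −log10 p of the list, where 100 is the strongest peak of the library and a gene without a call counts as 0.

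The 3 subclusters differed in how often their starts were called. The median clustered protocadherin was called in 14.5 of the 24 libraries, against 20 for all 21938 protein-coding genes. Only Pcdhga8, Pcdhac2 and Pcdhgc4 were called in all 24 libraries, which is 5.17% of the cluster against 24% of protein-coding genes. No library called 11 of the 58 genes, or 19%, against 23.1% of protein-coding genes. All 19 gamma variable genes were called in at least 12 libraries, with a median of 21 and a range of 13 to 24. Of the 12 alpha variable genes 8 reached 12 libraries, with a median of 14.5. Of the 22 beta genes only 4 did, with a median of 2, and 10 were called in none. Of the C-type genes 4 of 5 were called in at least 12 libraries, while Pcdhgc5 was called in none.

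**Figure D1:**
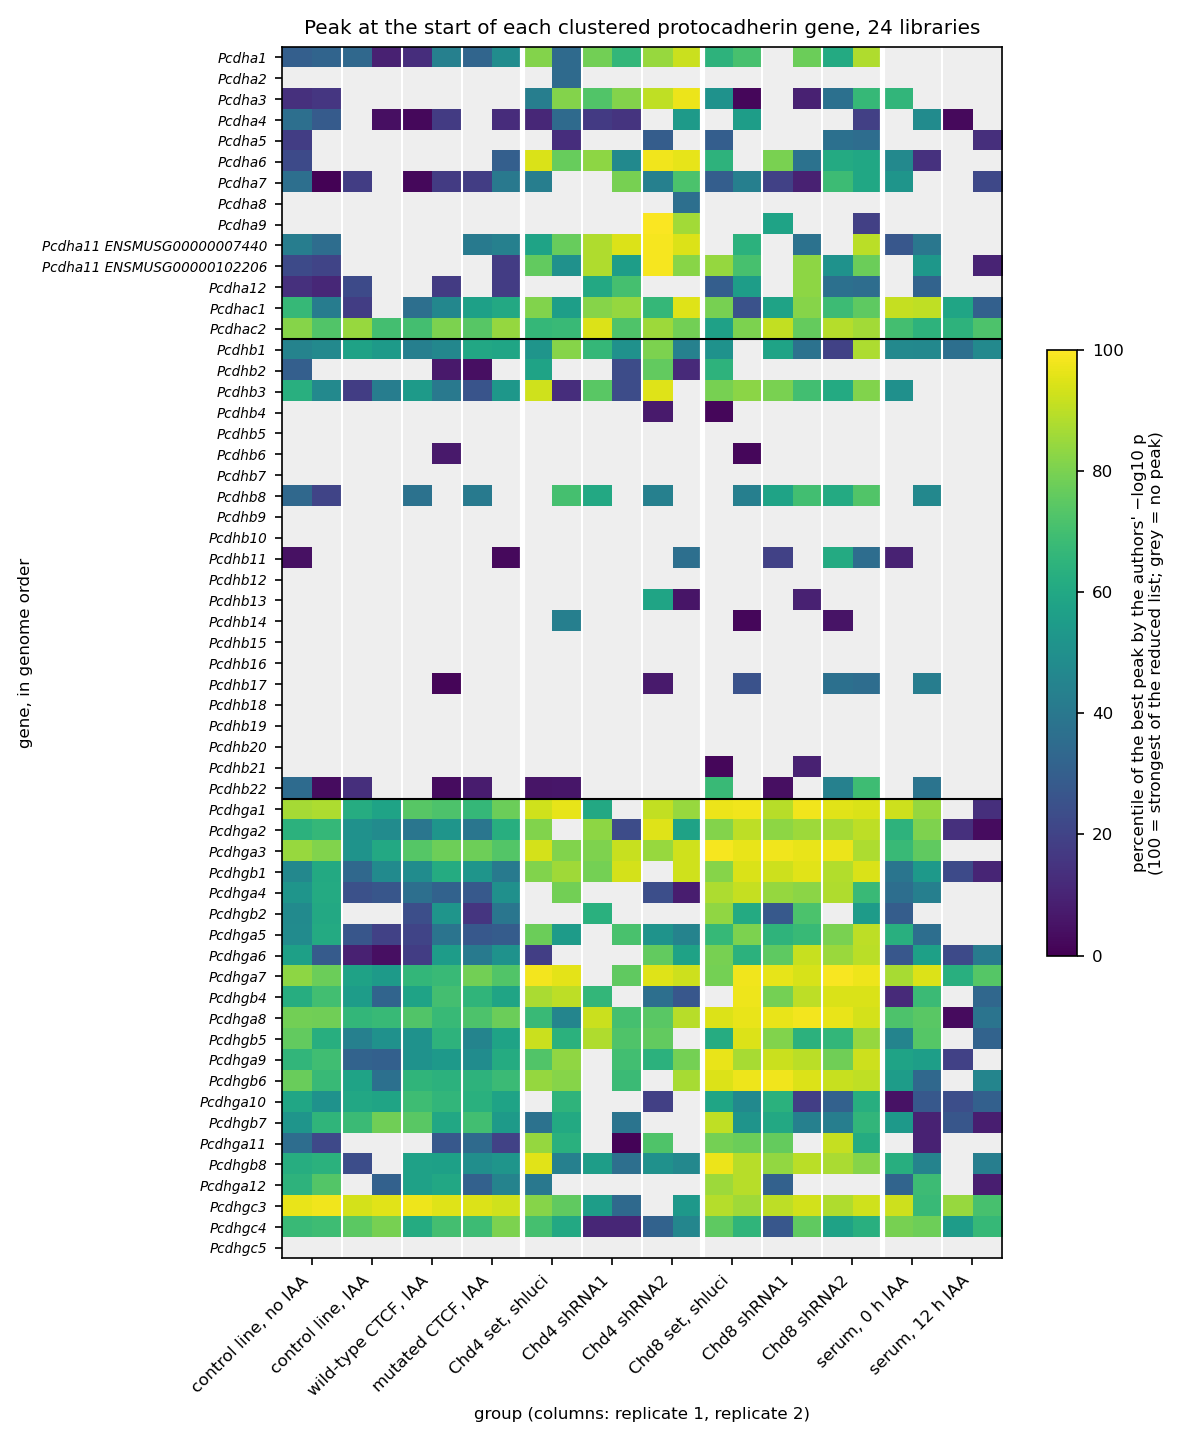
Rank of the best peak within 1 kb of a start for each clustered protocadherin gene (rows, in genomic order) in each of the 24 libraries (columns), as a percentile of the library's reduced list, with grey cells for no call. The gamma rows are filled in most columns, 10 of the 22 beta rows are empty throughout, and most alpha cells are grey in the columns of the control line and of serum with IAA.

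The first comparison asked what 12 h of IAA changed at these promoters. In the control line the number of clustered protocadherin genes called was 38 and 34 in the replicates without IAA and 26 and 23 with IAA, a difference in means of −11.5 genes. In the serum set the numbers were 29 and 31 at 0 h and 14 and 21 at 12 h, a difference of −12.5. In both sets every IAA library lay below every library without IAA. Over all protein-coding genes the share called was 69.8% without and 70.2% with IAA in the control line, and 65.2% and 65.4% in the serum set.

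In these lists the difference lay in the alpha, beta and gamma genes and hardly in the C-type genes. The alpha variable genes called were 9 and 7 without IAA and 3 and 2 with IAA in the control line, and 4 and 5 against 1 and 3 in the serum set. The gamma variable genes called were 19 and 19 without and 16 and 16 with IAA in the control line, and 18 and 18 against 8 and 13 in serum. Neither pair of groups overlapped in either subcluster. The beta genes called were 6 and 4 against 3 and 2 in the control line, and 3 and 4 against 1 and 1 in serum. Of the C-type genes 4 were called in each of these 8 libraries but 1, a control-line library with IAA in which Pcdhac1 had no call.

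The numbers for the subclusters depend on how deep the lists reach. With all 24 lists held at 59786 peaks, no alpha variable gene was called in any library of the CTCF lines. At that length the gamma variable genes called were 15 and 17 without and 9 and 7 with IAA in the control line, a difference of −8.0 in place of −3.0. The beta genes called were then 1 and 0 without and 1 and 1 with IAA, a difference of 0.5 in place of −2.5, so their direction turned. The lower numbers of alpha and beta genes in the control line thus rest on the weaker peaks of the longer lists. In serum the gamma variable genes called at the deposited list length were 18 and 18 at 0 h and 11 and 17 at 12 h. That gap is smaller than in the reduced lists, where the 12 h counts were 8 and 13.

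**Figure D2:**
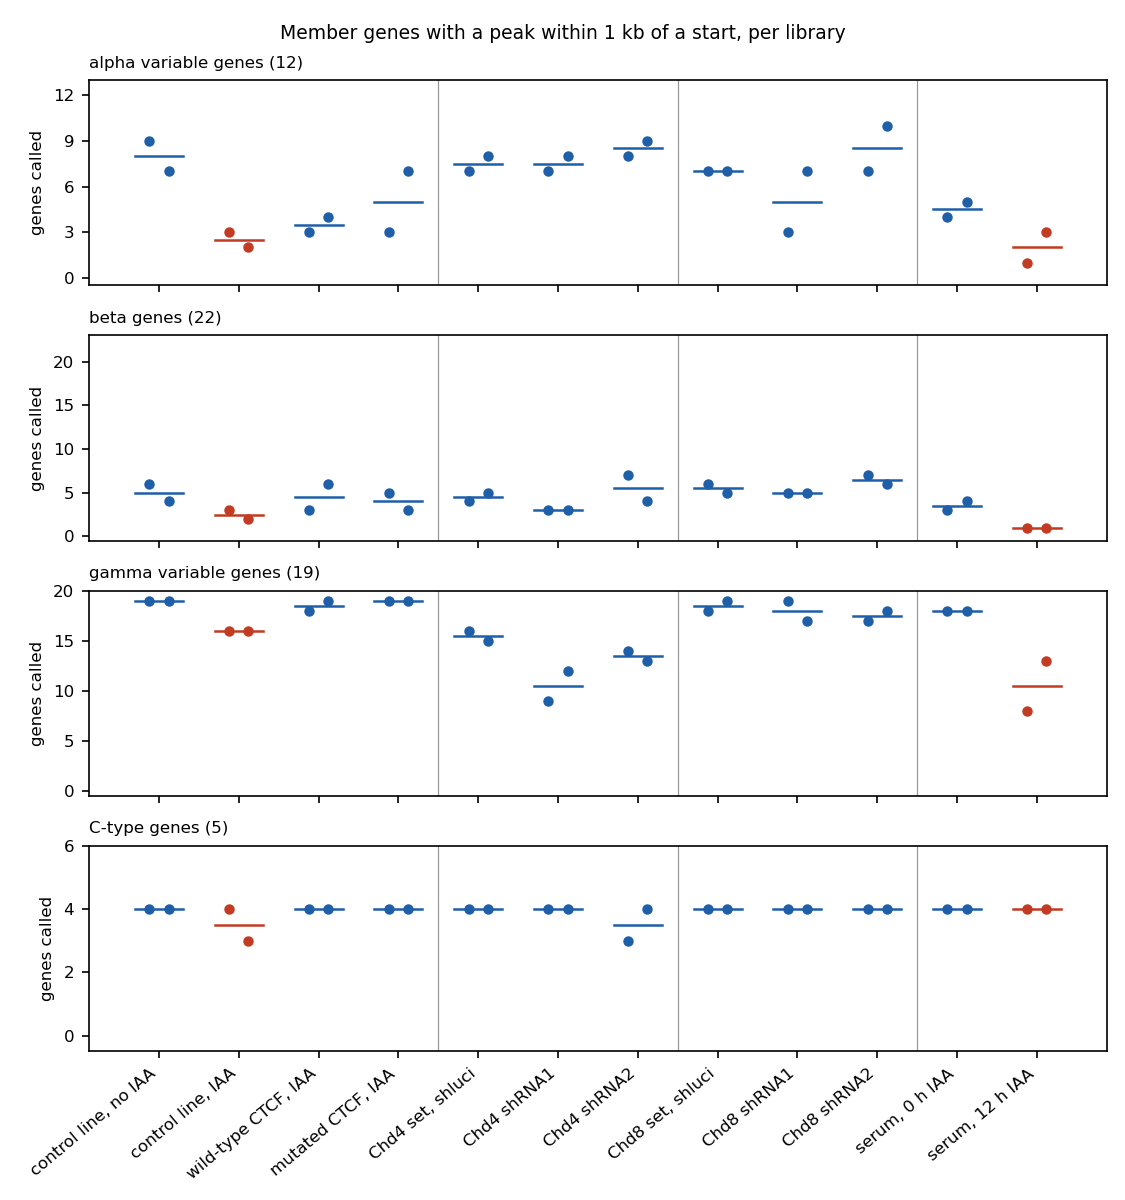
Number of genes with a peak within 1 kb of a start in each library (points) and the mean of each group of 2 libraries (short lines), by subcluster and group, in lists reduced within each set; red marks the control line and the serum cells with IAA, and grey lines part the sets. In the control line and in serum the alpha variable and gamma variable points with IAA sit below all points without IAA, and the C-type points stay at 3 or 4.

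By the strict rule that a gene be called in both libraries without IAA and in neither with IAA, 6 of the 58 genes (10.3%) were lost in the control line, against 0.356% of protein-coding genes, and none was gained, against 0.401%. The 6 were Pcdha3, both genes named Pcdha11, Pcdhb8, Pcdhgb2 and Pcdhga11. In the serum set 5 genes (8.62%) were lost, against 0.501% of protein-coding genes, and none was gained, against 0.515%. These were Pcdha6, Pcdha11 (ENSMUSG00000007440), Pcdhga3, Pcdhga4 and Pcdhga5. In the lists before reduction Pcdhga5 had a peak in both 12 h libraries and Pcdhga3 in replicate 2. The loss of Pcdhga3 and Pcdhga5 thus rests on the reduced lists. The protein-coding background holds stronger peaks: the median rank of called protein-coding starts lay between the percentiles 71.0 and 88.5 in the 24 libraries, and that of called alpha variable starts between 2.07 and 94.1. A start near the limit of a list is more easily lost than one far above it, so these shares are not a comparison at equal strength.

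Pcdha11 (ENSMUSG00000007440), which starts at 37005203, was the only gene of the cluster called in all 4 libraries without IAA of both sets and in none of the 4 with IAA, a pattern seen at 0.0501% of protein-coding genes. Its rank without IAA was 42.4 and 35.8 in the control line and 27.2 and 39.7 in serum. The window nearest its start, chr18:37004974-37005474, is centred 21 bp after it and was called in the same 4 libraries. In replicate 1 of serum at 0 h this window stood at 18.7, and the rank of 27.2 belongs to the next window, chr18:37005509-37006009, which is centred 556 bp after the start. Pcdhgb2, a gamma B gene, stood at 47.9 and 60.3 without IAA in the control line and had no call with IAA. Pcdhga11, a gamma A gene, stood at 35.9 and 22.1 and likewise had no call with IAA. Pcdha3 was among the weakest peaks before it was lost, at 13.8 and 15.9.

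Ranks were lower at many gamma promoters, some of which kept their call. A rank was counted as lower when every IAA library lay below every library without IAA. This measure was added after the calls had been seen. In the control line 16 of 19 gamma variable genes had a lower rank and 1 a higher rank, against 16.6% lower and 24.7% higher among protein-coding genes called in the same comparison. In serum 12 of 19 were lower and none higher, against 18.5% and 16.9%. Of the lower genes only Pcdhga2, Pcdhgb1, Pcdhga7 and Pcdhga8 kept a call in both serum libraries at 12 h. Among the lower genes of the control line, Pcdhgb2 and Pcdhga11 had no call with IAA, and Pcdhgb8 and Pcdhga12 had 1. Missing calls count as 0, so the tallies also hold lost calls. The sets share no library, and 11 of the 19 were lower in both, against 4.95% of protein-coding genes called in both. The median change of the mean rank was −27.0 percentile points for the gamma variable genes in the control line and −32.2 in serum, beside 0.30 and −0.08 for protein-coding genes. Since called protein-coding starts hold stronger peaks, these rank changes and shares are likewise not a comparison at equal strength.

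The 5′ gamma genes show the size of the change against the replicate spread. Pcdhga1 stood at 86.5 and 87.6 without IAA and at 62.0 and 58.1 with IAA in the control line. In serum it stood at 92.5 and 84.3 against no call and 13.3. Pcdhga3 stood at 84.7 and 81.2 against 51.4 and 60.5 in the control line, and at 67.6 and 75.7 against no call in serum. At both genes the gap between the groups was wider than the gap between replicates in either medium.

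Genes further along the gamma array had lower ranks with IAA as well. Pcdhga7 stood at 83.2 and 77.6 against 57.5 and 54.4 in the control line, and at 86.9 and 94.7 against 63.2 and 73.6 in serum. Pcdhga9 stood at 65.9 and 69.4 against 31.7 and 30.5, and at 58.2 and 56.1 against 19.4 and no call. Pcdhga8, the gamma gene called in all 24 libraries, stood at 78.8 and 78.5 against 66.2 and 67.5, and at 72.1 and 74.6 against 2.77 and 38.3. The 3 genes kept a call in the control line, so the count of genes called does not register their change. Near the 3′ end of the array Pcdhga12 stood at 64.6 and 73.1 against no call and 31.2 in the control line, and at 32.3 and 68.5 against no call and 8.55 in serum. Its neighbour Pcdhgb8, annotated as a polymorphic pseudogene, stood at 62.3 and 63.7 against 23.8 and no call, and at 62.5 and 44.7 against no call and 42.7.

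The remaining gamma genes were lower in the control line and split in serum. Pcdhga2 stood at 64.1 and 66.7 against 50.7 and 48.4 in the control line, and at 64.8 and 80.7 against 14.0 and 3.35 in serum. Pcdhgb5 stood at 76.1 and 62.8 against 43.7 and 50.7, and at 45.1 and 73.8 against no call and 31.8. Both were thus lower in each medium, as were Pcdhga4 and Pcdhga5. Pcdhga6 stood at 57.0 and 28.8 against 9.04 and 3.99 in the control line, and overlapped in serum at 27.2 and 56.9 against 22.5 and 41.7. Pcdhgb4 stood at 62.3 and 69.9 against 55.1 and 32.4, and overlapped in serum at 12.1 and 68.3 against no call and 33.5. Pcdhgb6 likewise stood at 77.2 and 67.4 against 58.0 and 36.8, and overlapped in serum at 55.3 and 33.6 against no call and 45.5. Pcdhgb2 and Pcdhga11, described above, also overlapped in serum, where 1 library at 0 h and none at 12 h called each.

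The exceptions in the control line were Pcdhgb1, Pcdhga10 and Pcdhgb7. Pcdhgb7 was the gamma variable gene with a higher rank after IAA, at 52.0 and 65.5 without and 68.2 and 78.4 with IAA. In serum its replicates spread from 9.38 to 53.9 at 0 h and overlapped the 12 h values of 26.9 and 8.36. Pcdhga10 stood at 59.3 and 51.0 without and 60 and 58.5 with IAA, so its groups overlapped. The Pcdhgb1 ranks overlapped as well in the control line, while in serum they were 38.9 and 54.1 against 22.5 and 10.5.

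The C-type genes did not share one pattern. Pcdhac1, at the 3′ end of the alpha array, was lower with IAA in both sets, at 66.8 and 41.9 against 18.2 and no call in the control line, and at 91.4 and 90.4 against 58.7 and 30.5 in serum. Pcdhac2 overlapped between the groups in both sets, at 82.0 and 72.9 against 84.6 and 70.2 in the control line. Pcdhgc3 was the strongest start of the cluster there and stood at 96.8 and 97.7 against 93.4 and 95.4, so its groups separated by a small margin. Pcdhgc4 was higher with IAA in the control line, at 67.8 and 69.0 against 74.9 and 79.5, and lower in serum, at 79.4 and 78.0 against 55.4 and 67.0. The difference between the control line and the serum set was not tested for single genes. Line, set and labelled medium differ together between them and cannot be told apart.

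The alpha and beta genes gave fewer comparable ranks because few had a call. Of 9 alpha variable genes called in any of the 4 control-line libraries, 4 had a lower rank with IAA and none a higher one, against 16.6% and 24.7% of protein-coding genes. In serum 2 of 8, Pcdha6 and Pcdha11 (ENSMUSG00000007440), were lower and none higher, against 18.5% and 16.9%. Pcdha1, the most 5′ alpha gene, stood at 30.1 and 32.4 without and 33.9 and 9.35 with IAA, so its groups overlapped. Pcdha4 stood at 36.7 and 28.8 against no call and 3.99 in the control line, and overlapped in serum at no call and 48.2 against 2.72 and no call. Of 6 beta genes called in the control line, 2 were lower and 1 higher, and of 6 called in serum none was either, which at this number of genes is near those shares. Pcdhb1, the most often called beta gene, was the higher one, at 44.9 and 47.1 without and 57.5 and 54.4 with IAA. Pcdhb3 was lower there, at 63.0 and 47.1 against 18.2 and 42.3.

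**Figure D3:**
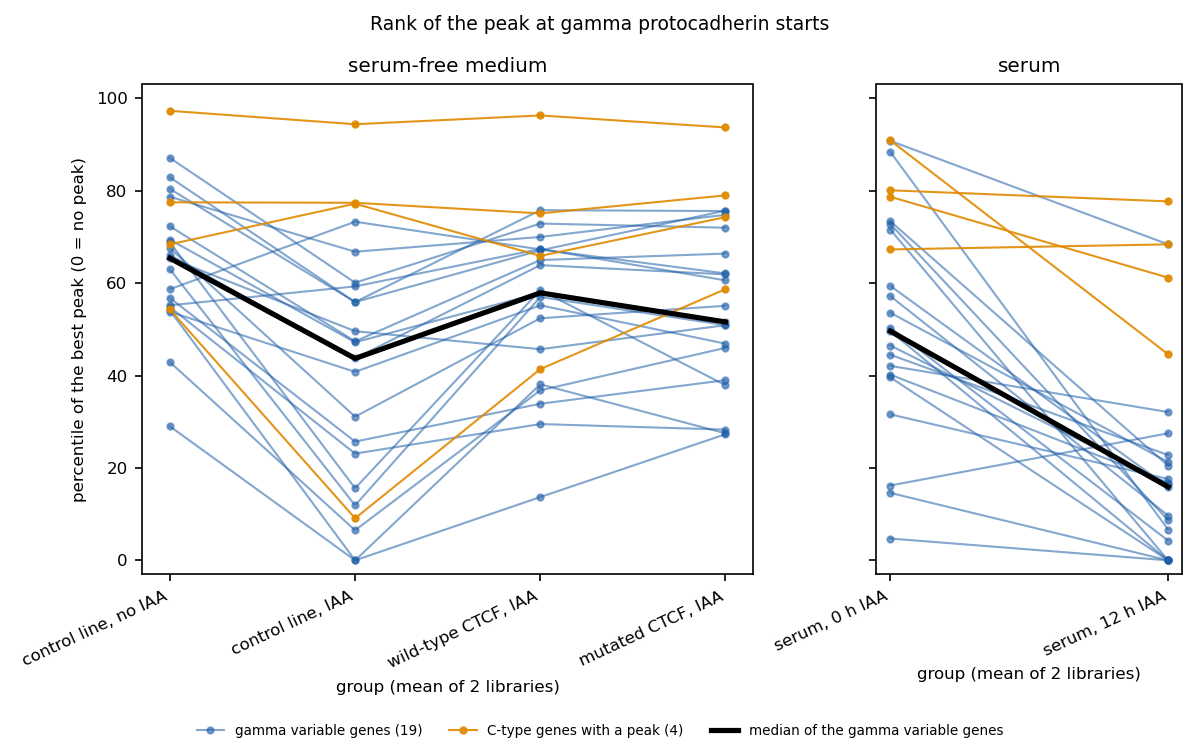
Mean rank of 2 libraries, as the percentile of the best peak within 1 kb of a start (0 for no peak), for the 19 gamma variable genes (blue), the 4 C-type genes with a peak (orange) and the median of the gamma variable genes (black). The median is 65.4 without IAA, 43.7 with IAA, 57.9 in the wild-type line and 51.6 in the mutated line, and 49.6 against 15.9 in serum.

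Genes that are not members of the cluster were set beside it from lists. Among protein-coding genes 16.6% were lower and 24.7% higher in the control line, and 18.5% and 16.9% in serum. The 12 non-clustered protocadherins, which are single genes spread over the genome, split evenly in the control line, with 2 lower and 2 higher, and gave 2 lower and 1 higher of 10 called in serum. Pcdh15 was the only one lost in the control line. The other 38 genes with a start in the region gave 5 lower and 6 higher of 22 called in the control line, and 7 lower and 1 higher of 22 in serum. Some of the 38 start inside the arrays, such as Gm38097 among the alpha and Gm26672 among the gamma genes. They are thus not a comparison away from the cluster. A list of 20 possible regulators held Ctcf, cohesin genes, Smchd1, Setdb1 and DNA methyltransferases, and also Chd4 and Chd8. Whether each of them acts on the cluster was not tested. Of the 20, 4 were lower and 5 higher in the control line, and 3 lower and 2 higher of 19 called in serum.

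The second comparison asked whether CTCF from the overexpression construct altered the picture under IAA. Both overexpressing lines were set against the same IAA libraries of the control line, so the 2 contrasts share those libraries with each other and with the IAA contrast above. The number of clustered protocadherin genes called was 28 and 33 in the wild-type line and 31 and 33 in the mutated line, against 26 and 23 in the control line with IAA. The differences in means were 6.0 and 7.5 genes, and neither line overlapped the control line. The share of protein-coding genes called was 69.5% in the wild-type line, 69.9% in the mutated line and 70.2% in the control line with IAA.

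The gamma variable genes showed the difference in rank more than in calls. In the wild-type line 18 and 19 of them were called, and in the mutated line 19 and 19, against 16 and 16 in the control line with IAA. In the wild-type line 14 of 19 had a higher rank than in the control line with IAA and none a lower one, against 11.5% higher and 29.1% lower among protein-coding genes. In the mutated line 13 of 19 were higher and none lower, against 13.3% and 23.5%. With all lists held at 59786 peaks the count was 6 in place of 13.

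Pcdhga1 stood at 73.9 and 72.0 in the wild-type line and 66.5 and 77.4 in the mutated line, between its values of 86.5 and 87.6 without IAA and 62.0 and 58.1 with IAA in the control line. Pcdhga9 stood at 50.8 and 54.0 and at 48.5 and 61.7, also between its control-line values. Pcdhgb2, which had no call in the control line with IAA, stood at 24.1 and 52.1 in the wild-type line and 15.6 and 39.4 in the mutated line. It was called in both libraries of each line, which counts as gained. It was the only member gained in the wild-type line, or 1.72%, against 0.273% of protein-coding genes. In the mutated line 3 members were gained, or 5.17%, against 0.273%, namely Pcdhgb2, Pcdhga11 and Pcdha11 (ENSMUSG00000007440). No member was lost in either contrast, against 0.406% and 0.324%.

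The numbers of alpha variable genes called overlapped between the lines. In the wild-type line 3 and 4 of them were called and in the mutated line 3 and 7, against 3 and 2 in the control line with IAA and 9 and 7 without, so among the subclusters only the gamma counts separated from the control line with IAA in both lines. With all lists at 59786 peaks the gamma counts were 12 and 16 in the wild-type and 9 and 13 in the mutated line against 9 and 7, so the mutated line then met the control line at 9. Pcdha11 (ENSMUSG00000007440) had no call in either wild-type library and stood at 41.1 and 43.4 in the mutated line, close to 42.4 and 35.8 in the control line without IAA. Pcdhga11 was called in both mutated libraries, at 34.7 and 19.8, and in 1 wild-type library, at 27.4. Of the 6 genes lost in the control line, wild-type libraries called 1 in both libraries, 2 in 1 library and 3 in neither, and mutated libraries called 3 in both, 2 in 1 and 1 in neither. Of the 78 protein-coding genes lost, the wild-type line called 38.5% in both libraries and the mutated line 35.9%. Pcdha3 was called in neither line.

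Set against each other directly, the overexpressing lines differed at few members. The mean number of genes called was 1.5 lower in the wild-type line, and the counts of 28 and 33 and of 31 and 33 overlapped. With all lists at 59786 peaks the difference was 1.0 in the other direction. Pcdha11 (ENSMUSG00000007440) was called in both mutated and no wild-type library, which counts as lost, against 0.278% of protein-coding genes, and none was gained, against 0.146%. Among the gamma variable genes Pcdhga7 ranked lower in the wild-type line, and Pcdhga10, Pcdhgb8 and Pcdhga12 ranked higher, against 20.7% lower and 12.2% higher among protein-coding genes. Pcdhga12 stood at 57.2 and 59.8 in the wild-type and 31.1 and 44.7 in the mutated line.

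Some libraries of the CTCF lines had a strong peak over a copy of mitochondrial sequence on chromosome 1: both control libraries without IAA and 1 of 2 in each IAA group. Among the libraries with this peak the difference in genes called was −13.0 for IAA in the control line. The differences of the wild-type and mutated line from the control line were 7.0 and 7.0 among the libraries without it and 5.0 and 8.0 among those with it.

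**Figure D4:**
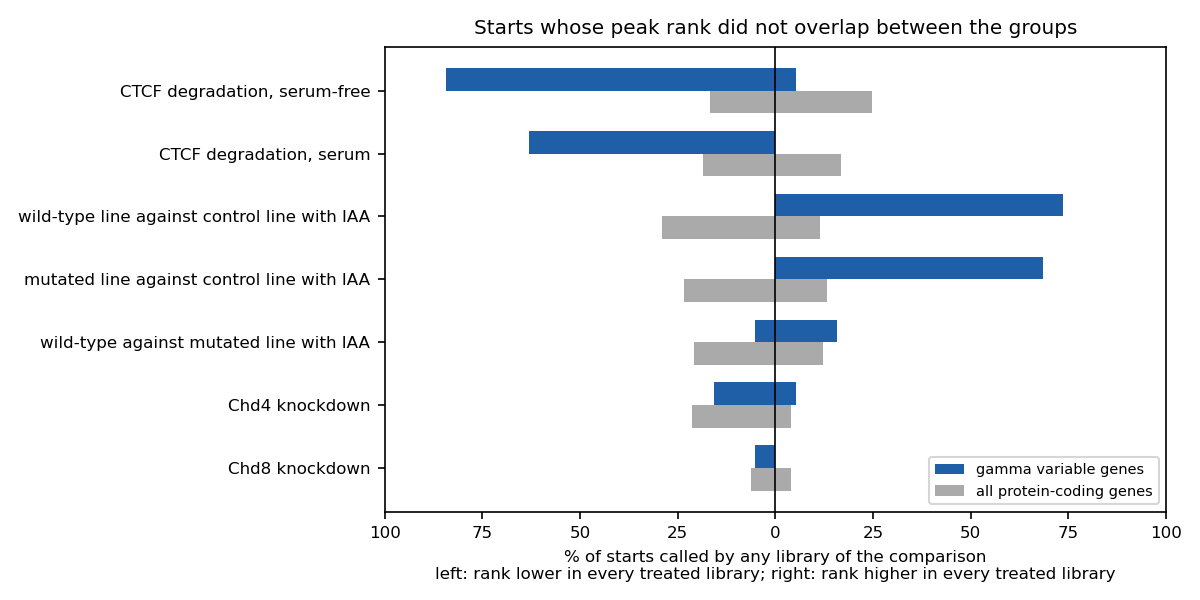
Starts whose rank was lower (left of zero) or higher (right of zero) in every treated than in every reference library, for the gamma variable genes (blue) and all protein-coding genes (grey) in each comparison, as a percentage of the starts called by any of its libraries. In the control line 84.2% of gamma variable genes were lower with IAA against 16.6% of protein-coding genes, and 73.7% were higher in the wild-type line against 11.5%.

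Knockdown of the chromatin remodeller genes was compared within their own sets. In the Chd4 set the number of genes called was 31 and 32 with shluci, 23 and 27 with shRNA1 and 32 and 30 with shRNA2, so shRNA1 lay below shluci and shRNA2 overlapped it. Over protein-coding genes the share called was 54.4% with shluci, 47.6% with shRNA1 and 43.0% with shRNA2. The gamma variable genes called were 16 and 15 with shluci, 9 and 12 with shRNA1 and 14 and 13 with shRNA2. Every library with a Chd4 hairpin lay below both shluci libraries, but at the deposited list length shRNA2 gave 17 and 13 against 16 and 15 and overlapped shluci. In the reduced lists 3 of 19 genes had a lower and 1 a higher rank in all 4 knockdown libraries, against 21.4% lower and 4.13% higher among protein-coding genes.

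The alpha variable genes of the Chd4 set kept their number of calls in the reduced lists, but not with shRNA2 at other list lengths. In the reduced lists the genes called were 7 and 8 with shluci, 7 and 8 with shRNA1 and 8 and 9 with shRNA2. At the shortest list length of the series they were 6 and 7, 6 and 7, and 8 and 9 in that order. At the deposited list length they were 8 and 8, 10 and 8, and 11 and 9. At both of these lengths shRNA2 lay above shluci, while shRNA1 did not separate from it. The ranks that follow are from the reduced lists. With shRNA2, 7 of 11 alpha variable genes called had a higher rank than with shluci and none a lower one, against 10.8% higher and 37.4% lower among protein-coding genes. With shRNA1, 2 of 10 were higher, against 13.1%, and none lower, against 32.6%. Pcdha6 stood at 94.4 and 76.7 with shluci, 82.9 and 47.4 with shRNA1 and 97.7 and 96.1 with shRNA2. Pcdha11 (ENSMUSG00000007440) stood at 58.2 and 76.7 with shluci, 88.2 and 94.8 with shRNA1 and 98.6 and 94.8 with shRNA2, so both hairpins lay above shluci at this gene. In the reduced lists Pcdha9 had no call with shluci or shRNA1 and stood at 99.3 and 86.2 with shRNA2. In replicate 1 of shRNA2 only 2 of 10 stem cell markers were called, and the part of this in the alpha values was not tested.

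Across both Chd4 hairpins Pcdhb22 was lost, against 2.12% of protein-coding genes, and none was gained, against 0.451%. With shluci its rank was only 5.54 and 5.90. With shRNA1 alone Pcdhb22 was lost, against 4.66%, and Pcdha12 gained at 60.2 and 70.5, against 1.47%. With shRNA2 alone Pcdhb22 and Pcdhgb7 were lost, against 6.87%, and Pcdha9 and Pcdhb13 gained, against 1.24%. Pcdhb13 had no call with shluci or shRNA1 in the reduced lists and stood at 58.4 and 5.52 with shRNA2. In the lists before reduction Pcdha9 and Pcdhb13 also had a peak in replicate 1 of shluci and of shRNA1. Pcdhgb7 then had a peak in replicate 1 of shRNA2. The gain or loss of these genes thus rests on the reduced lists. Of the 4 C-type genes called, Pcdhgc3 and Pcdhgc4 were lower and Pcdhac2 was higher in all 4 knockdown libraries, against 21.4% lower and 4.13% higher among protein-coding genes, and Pcdhac1 overlapped. Pcdhac2 stood at 66.6 and 67.8 with shluci, 94.8 and 72.5 with shRNA1, and 85.4 and 78.7 with shRNA2. Pcdhgc3 stood at 81.9 and 75.7 with shluci, 55.6 and 34.1 with shRNA1, and no call and 53.4 with shRNA2.

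In the Chd8 set shRNA1 lay below shluci and shRNA2 at or above it. The number of genes called was 35 and 35 with shluci, 31 and 33 with shRNA1 and 35 and 38 with shRNA2. The share of protein-coding genes called moved in the same directions, at 63.8% with shluci, 63.0% with shRNA1 and 65.4% with shRNA2. No gene was lost or gained over both hairpins, against 0.219% and 0.196% of protein-coding genes. Of the 19 gamma variable genes 1 had a lower rank in all 4 knockdown libraries and none a higher one, against 6.17% and 3.98%. With shRNA2 alone Pcdhga12 was lost, against 0.524%, after 85.3 and 89.1 with shluci, and Pcdhb11 was gained, against 0.825%. With shRNA1, Pcdhga12 had a call in 1 library, at 30.9.

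Matches to a CTCF consensus were unevenly spread over the starts. The 14 bp CTCF consensus, allowing 1 mismatch, was found within 1 kb of a start at 9 of the 12 alpha variable genes (75%), none of the 22 beta genes, 1 of the 19 gamma variable genes and none of the 5 C-type genes. The share among protein-coding genes was 10.3%. All 9 alpha matches were on the plus strand and lay 456 to 581 bp after a start. The gamma match belonged to Pcdhgb7, on the minus strand 836 bp after its start. With 2 mismatches the alpha share rose to 91.7% and that of protein-coding genes to 58.7%, so the looser search separates them less. It matched 6 of 19 gamma variable, 9 of 22 beta and 4 of 5 C-type genes. The gamma variable genes, which had lower ranks with IAA most often, thus had the match with at most 1 mismatch at 1 start, and at that start the rank was higher with IAA in the control line. No match says only that these letters are not in the window searched, and CTCF binding was not measured in these libraries.

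The region from 100 kb before the first gene to 300 kb after the last, chr18:36830184-38141873, held 213 windows of 501 bp around peak summits. Of these, 15 held the consensus, 8 on the plus and 7 on the minus strand, or 7.04% against 5.57% of all windows of the genome. The 5 motif windows among the alpha genes were all on the plus strand, and of the 6 after the gamma genes 4 were on the minus strand. The number of motif windows called was 12 to 13 without and 8 in each library with IAA in the control line, 11 in each wild-type library and 11 to 13 in the mutated line. In serum it was 7 to 8 without and 4 to 5 with IAA, so the groups did not overlap in either set. Of the 13019 windows of the genome with the consensus, a mean of 67.4% was called without and 39.3% with IAA in the control line, and 47.4% and 23.7% in serum. The region's motif windows thus differed in the same direction as those of the whole genome, with means of 83.3% and 53.3% in the control line and 50.0% and 30.0% in serum. In the wild-type line the genome share was 56.8% and the region's mean 73.3%, and in the mutated line they were 53.3% and 80.0%, so the order of these lines differed. In the Chd4 set it was 2 to 5 with shluci and 3 to 5 with the other hairpins, and in the Chd8 set 3 to 10 and 6 to 10, so the groups overlapped in both sets. The genome shares there were 34.2% with shluci, 28.3% with shRNA1 and 28.6% with shRNA2 for Chd4, and 55.4%, 52.9% and 53.0% for Chd8. The region's means were 23.3%, 20.0% and 33.3% for Chd4 and 43.3%, 50.0% and 63.3% for Chd8, so they did not follow the genome in either Chd8 hairpin or in Chd4 shRNA2. Among the 198 windows without the consensus the means were 135.5 without and 117.5 with IAA in the control line, and 98.5 at both times in serum.

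By the rule of both libraries against neither, 16 windows of the region were lost with IAA in the control line (7.51%, against 3.52% of all windows) and 2 were gained (0.939%, against 2.91%). In serum 8 were lost (3.76%, against 2.04%) and 5 gained (2.35%, against 2.24%). Of the 15 motif windows 3 were lost in the control line (20.0%), near the share of 20.5% among all motif windows of the genome, and 1 in serum, against 14.9%. The wild-type line gained 8 and lost 5 windows against the control line with IAA, beside 2.37% and 2.55% of all windows. The mutated line gained 15 and lost 3, beside 2.25% and 1.92%. With all lists at 59786 peaks the wild-type line gained 4 and the mutated line 2. Fewer windows were also lost with IAA in the control line at that length, as given in the last section. Chd4 knockdown lost 8 and gained none, beside 2.83% and 1.19%, and Chd8 knockdown lost 1 and gained 1, beside 1.01% and 0.552%.

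Only 2 windows of the region were called in all 4 libraries without IAA and none with IAA of the control line and serum set, beside 0.651% of all windows. One is the window at the start of Pcdha11 described above, which holds no consensus. The next window, 556 bp after that start, holds it on the plus strand and was called in 4 of the 24 libraries, 1 of them among the 4 without IAA. The other, chr18:37851940-37852440, lies in an intron of Diaph1, an actin-nucleating formin gene downstream of the gamma array, and holds the consensus on the minus strand. Its rank was 67.4 and 73.8 without IAA in the control line and 80.6 and 76.8 in serum, with no call in the 4 libraries with IAA. It stood at 58.2 and 56.8 in the wild-type line and at 66.5 and 50.0 in the mutated line, so this window was called in all 4 libraries with overexpressed CTCF.

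Some motif windows were called with and without IAA. The window at the start of Slc25a2, a mitochondrial carrier gene between the beta and gamma arrays, was called in all 24 libraries, at 62.7 and 52.1 without and 78.8 and 74.7 with IAA in the control line. In serum its direction was the opposite, at 56.9 and 58.1 against 30 and 51.6. The window at the start of Diaph1, chr18:37935323-37935823, stood at 80.4 and 81.2 without and 86.5 and 89.5 with IAA, and one in an intron of AC121886.1 stood at 85.0 and 69.4 against 78.2 and 84.1. In serum the groups overlapped at both, at 72.3 and 88.5 against 81.5 and 77.0 and at 13.4 and 38.1 against 34.3 and 25.2. A further motif window in an intron of Diaph1, chr18:37883531-37884031, was called in 13 libraries. It stood at 61.2 and 48.7 without and 69.3 and 66.7 with IAA in the control line and had no call in serum. The motif windows near Pcdha1 and Pcdha7 were called in 16 and 17 of the 24 libraries, mostly at low ranks in the CTCF lines. The one near Pcdha7 stood at 36.7 and 0.469 without and 18.2 and no call with IAA in the control line. Among motif windows after the gamma genes, one in an exon of Arap3 and one between genes were lost in the control line together with the Diaph1 intron window.

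The most persistent windows away from starts held no consensus. The window chr18:37822485-37822985 lies in an intron of the gamma genes, 3169 bp after the start of Pcdhgc5, and was called in all 24 libraries at a mean percentile of 88.2. In the CTCF lines it stood between 92.0 and 95.5, and in serum at 77.3 and 60.9 at 0 h and 51.3 and 58.7 at 12 h. The window chr18:37217779-37218279 lies between the alpha and beta genes in an intron of Gm42416 and was also called in all 24 libraries. It stood at 84.6 and 85.9 without and 84.0 and 85.3 with IAA in the control line, and at 89.0 and 89.9 against 89.5 and 83.9 in serum. A window next to it holds the consensus on the minus strand and was called in 2 libraries, both without IAA. A further gamma intron window and 3 windows in introns of Diaph1 were called in 23 libraries each.

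**Figure D5:**
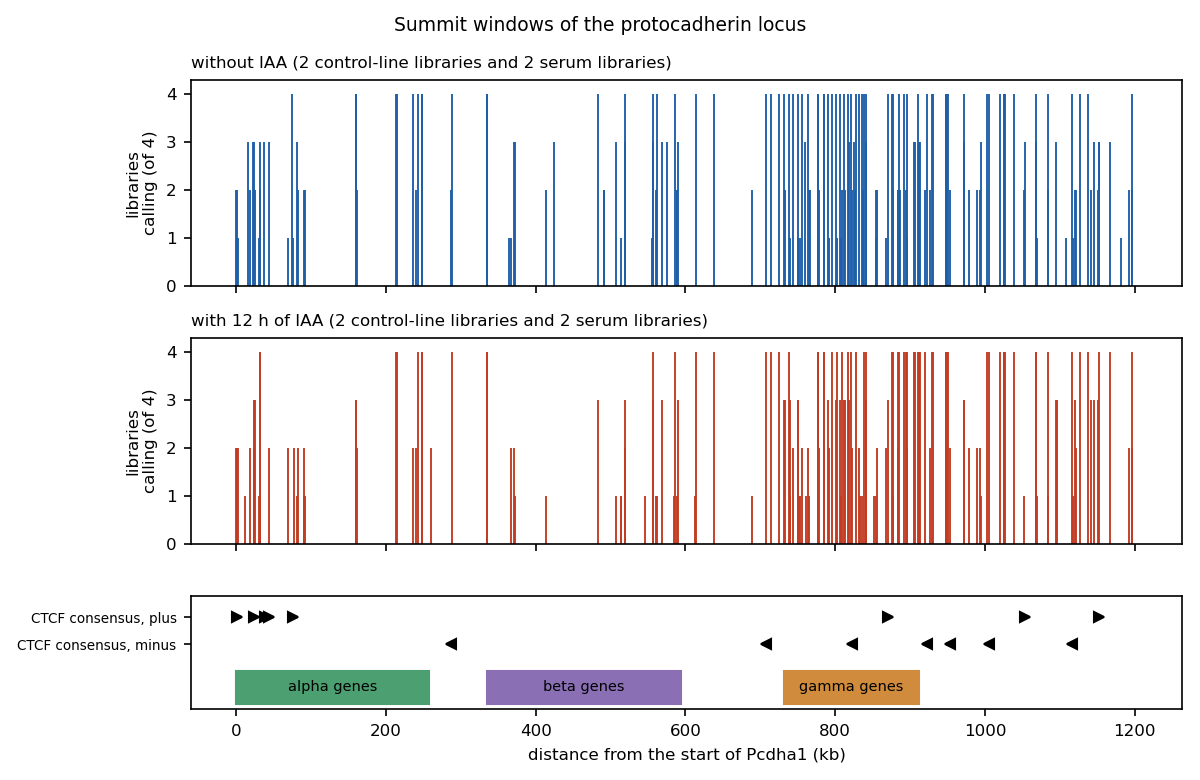
Windows of the region by their distance from the start of Pcdha1 in kb (horizontal axis), with the number of the 4 libraries without IAA (blue) and of the 4 with IAA (red) of the control line and serum set that called each, above the matches to the CTCF consensus by strand and the spans of the 3 gene arrays. All matches at the alpha genes are on the plus strand. The windows at Pcdha11 and in the Diaph1 intron have 4 libraries without IAA and none with IAA.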

How the data were processed

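ATAC-seq peak lists of 24 libraries in 12 groups of 2 were used, grouped by the labels. Trim Galore, Bowtie2, MACS2 and deepTools and the mm10 build are named in the submitters' processing notes, without roles or settings. The deposited lists give per peak the fold (a ratio to background), the −log10 p and −log10 q and a score, all the authors' values for that peak in its own library. They were used to rank and filter peaks within a list only. Reads were not used, so no counting interval is given.

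The 58 genes, the gene lists and the tests were chosen with earlier results of these data known. Lists were reduced by −log10 p to the shortest list of their set, which holds 120137 peaks in the CTCF lines, 80619 in the Chd4 set, 135410 in the Chd8 set and 59786 in the serum set. Starts came from GENCODE vM21 (basic), and a peak within 1 kb called a gene. Windows of 501 bp were placed on summits, and 233706 of 405819 were called by at least 2 libraries and kept. The CTCF consensus of 14 bp was searched on both strands of the mm10 sequence with at most 1 mismatch. A gene or window was lost when all reference and no treated libraries called it, with gain as the reverse.

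Exact permutation of library labels was the planned test. Two-sided, it cannot go below 0.333 for 2 libraries against 2 and 0.0667 for 2 against 4. For both media together the limit is 0.0556 two-sided and 0.0278 one-sided. No p is given for counts over genes or windows that were chosen with results known, and differences are set against the replicate spread and the share of all genes. Named were C-type genes, genes called in at least 12 libraries, genes lost or gained, motif windows called in at least 12 libraries, windows changed in both media and the 5 non-promoter windows called most often, with ties ordered by mean percentile. A further Diaph1 intron window in the same tie, the windows in Arap3 and beside the Gm42416 and Pcdha11 windows, and the genes Pcdh15, Pcdhb11 and Pcdhb13, are named beside them. Same-numbered replicates deviated together little if at all (correlations −0.135 to 0.131 in the CTCF lines and 0.000476 in serum). Replicate numbers were therefore not taken as pairs. Scripts (Python 3.11.15, numpy 2.4.6, pandas 2.3.3, matplotlib 3.10.9) were tested on simulated data. Alternatives were the deposited list length, 1 length for all 24 lists, a −log10 q of at least 10, a distance of 500 bp, the summit within 1 kb, a cover of 50% of a window, 2 mismatches and leaving out each library. Sequences of this chromosome are not printed.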

Additional observations from a re-analysis of the deposited data

How the results depend on the processing

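The lower number of clustered protocadherin genes called with IAA kept its direction under every alternative run, and so did the lower ranks of the gamma variable genes. Leaving out each library in turn gave differences in genes called of −13.5 to −9.5 in the control line, −16.0 to −9.0 in serum and −13.75 to −10.25 in both together. The wild-type line gave 3.5 to 8.5, the mutated line 6.0 to 9.0, wild-type against mutated −4.0 to 1.0, Chd4 knockdown −4.83 to −1.83 and Chd8 knockdown −2.0 to 0.333. The gamma variable genes with a lower rank were 16 to 17 in the control line and 13 to 15 in serum, and those with a higher rank 15 to 17 in the wild-type and 13 to 16 in the mutated line. With 1 library in a group the rules for ranks and windows are easier to meet. Chd8 knockdown gave 0.333 without replicate 1 of shRNA1, and wild-type against mutated 1.0 without wild-type replicate 1. Motif windows called differed by −5.0 to −4.0 in the control line, −3.5 to −2.5 in serum, −4.0 to −3.5 in both, 3.0 to 3.0 in the wild-type line, 3.0 to 5.0 in the mutated line, −2.0 to 0.0 between them, −1.0 to 2.0 for Chd4 and −1.5 to 5.5 for Chd8. The values of −1.0 and −1.5 came without replicate 1 of shluci of each set. Windows lost were 23 to 26 in the control line, 14 to 18 in serum, 5 to 11 and 4 to 10 in the wild-type and mutated line, 11 to 17 between them, 9 to 15 for Chd4 and 1 to 10 for Chd8. Windows gained were 5 to 9, 10 to 17, 11 to 21, 22 to 27, 2 to 9, 1 to 3 and 1 to 11 in the same order.

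With all lists at 59786 peaks the difference between the wild-type and mutated line turned to 1.0 gene and 0.0 motif windows, Chd8 knockdown to 0.25 genes, and 6 gamma variable genes ranked higher in the mutated line. Windows lost were then 7 in the control line, 5 between the overexpressing lines and 5 for Chd4. Windows gained were 4 in the control line, 4 in the wild-type line, 2 in the mutated line, 2 between them, 1 for Chd4 and 2 for Chd8. At the deposited length Chd8 knockdown gave 0.0 genes, the motif windows of the Chd4 set −3.5, windows gained 11 in serum, 1 for Chd4 and 2 for Chd8, and windows lost 1 in the wild-type line. With a −log10 q of at least 10, Chd8 knockdown gave 1.5 genes. Windows lost were then 1 in the wild-type line, 1 in the mutated line, 5 between them and 5 for Chd4, and windows gained 1 in the control line, 13 in the wild-type line, 3 between the lines and 0 for Chd8. With a cover of 50%, the motif windows differed by 0.0 in the wild-type line and −0.25 for Chd4. Windows gained were then 4 in the control line, 2 in serum, 0 between the lines and 0 for Chd8, and windows lost 5 for Chd4 and 0 for Chd8. With 2 mismatches the motif windows of the Chd4 set gave −1.0. The cause of these changes was not tested.

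With the replicate number as a block, the differences equal those without it, −11.5 genes in the control line and −12.5 in serum, and 2 pairs cannot give an exact permutation p below 0.5. The pairing check gave small correlations only, so the replicate numbers were not taken as pairs. In both overexpressing lines, though, replicate 1 had the peak over the mitochondrial copy and replicate 2 did not.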
